A study of Danio rerio with 8 samples.

Results

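The REV-ERB and ROR nuclear receptors of zebrafish larvae are described here across 4 RNA sequencing libraries of nphp8 mutants and 4 of controls. Rows were taken by gene symbol, and the family was chosen with earlier results of these data known. Every row whose symbol, ignoring case, starts with nr1d, or is ror plus the letter a, b or c and an optional copy letter, was taken. The rule found 11 genes among the 32520 of the table, 5 REV-ERB genes (NR1D2, nr1d2a, nr1d4b, NR1D1 and nr1d4a) and 6 ROR genes (rorab, rorca, RORB, rorcb, RORA and rorc). Several symbols are written in the human style. NR1D2 is taken here as the copy other than nr1d2a, and RORA as the copy other than rorab, although the names used do not state which copy letter they would carry.

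The mutants carried the sa24730 allele of nphp8 on both chromosomes and came from homozygous mothers, so that maternal and zygotic product were both affected. The controls were labelled wild type and were called siblings in the design of the series. All offspring of a homozygous mutant mother carry a mutant allele, so wild-type controls must have had other mothers. The labels do not resolve this, and genotype cannot be told apart from mother or clutch in these libraries. All 8 libraries came from whole, untreated larvae at 2 days of age. The labels do not say how many larvae or clutches entered a library. The p-values therefore speak of the variation among these libraries, part of which may be technical. No label gives the hour or the lighting at collection.

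REV-ERB and ROR receptors bind the same DNA element, the RORE, and act on it in opposite directions. REV-ERB proteins bind heme and repress transcription by recruiting the corepressor NCOR1 and the deacetylase HDAC3, whereas ROR proteins activate it. In mammals both act on the BMAL1 gene, which joins them to the circadian clock as its second feedback loop. Mouse genetics ties RORα to cerebellar Purkinje cells, RORβ to the retina and RORγ to lymphoid tissue, and REV-ERB to lipid and glucose metabolism.

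Values are TPM, relative transcript abundances that are corrected for gene length and scaled to the same total in every library, so that levels of different genes can be compared. TPM keeps no record of read number, so the depth is unknown and low values carry no counting interval. Between 23637 and 23829 genes were above 0 in mutant libraries and between 23690 and 23964 in control libraries. The mutated gene, listed under its other name RPGRIP1L (ENSDARG00000051754), stood at 0.75, 0.72, 0.77 and 0.78 TPM in mutant libraries 1 to 4, against 2.75, 2.6, 2.26 and 2.17 TPM in control libraries 1 to 4. Every mutant lay below every control (exact permutation test, p = 0.0286, two-sided, the smallest that 70 assignments allow). The ratio of the means was 0.309. On the log2(TPM + 1) scale, which shrinks changes at low levels, the change was -0.97 (SE 0.0798, limma adjusted p = 2.47e-05).

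Of the 11 receptor genes, 1 rose in the mutants and 0 fell. That gene was NR1D2, the most abundant of them. A mean of at least 1 TPM over the 8 libraries was required for the main test, limma on log2(TPM + 1) with Benjamini-Hochberg adjustment over all 16560 genes that met it, and a gene was called at an adjusted p under 0.05. This left 6 receptor genes tested, of which 5 did not pass. Of the 6, 4 had an unadjusted p under 0.05, the largest being that of RORB (limma, unadjusted p = 0.0292). Among all 16560 genes tested, 4999 had a smaller p than RORB, so unadjusted counts here and below have a high background. Over all genes tested, 22.6% were called, 9.32% higher and 13.3% lower, so 1 call among 6 is not far from the background. The median log2 change was 0.16 over the 6 receptor genes and -0.015 over all genes tested.

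NR1D2 (ENSDARG00000009594) rose 1.4-fold. It stood at 13.54, 14.91, 14.41 and 13.23 TPM in mutant libraries 1 to 4, against 10.7, 8.84, 10.74 and 9.72 TPM in control libraries 1 to 4. Every mutant lay above every control, which held for 11.3% of all genes tested. The means were 14.0 ± 0.774 TPM in mutants and 10 ± 0.906 TPM in controls (SD, n = 4 each). The log2 change was 0.45 (SE 0.0654, 95% interval 0.31 to 0.60, limma adjusted p = 0.000996). Of the 16560 genes tested, 310 had a higher log2 change and 738 a larger one in either direction. These ranks are on the log2(TPM + 1) scale, which shrinks changes of genes at low levels. In whole larvae, a change in the number of cells that express a gene and a change in RNA per cell cannot be told apart.

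The other REV-ERB copy tested, nr1d2a (ENSDARG00000003820), had much lower levels and a similar ratio. It stood at 1.07, 1.42, 1.15 and 1.37 TPM in mutant libraries 1 to 4, against 0.77, 1.17, 0.63 and 0.78 TPM in control libraries 1 to 4. The groups overlapped, because control library 2 was above mutants 1 and 3. The means were 1.25 ± 0.169 TPM in mutants and 0.838 ± 0.232 TPM in controls (SD, n = 4 each), a ratio of 1.5. The log2 change of 0.30 did not pass (SE 0.107, 95% interval 0.06 to 0.54, limma adjusted p = 0.0724). Without control library 2 it passed (log2 change 0.38, limma adjusted p = 0.027), with 18.7% of all genes called in that fit. Control library 2 was the lowest control for NR1D2 and the highest for nr1d2a.

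Whether the copies of a receptor differed in their response was tested on the log2 ratio of their TPM + 1 in each library, for the 2 pairs of copies that both met the expression filter. The log2 ratio of nr1d2a to NR1D2 averaged -2.74 ± 0.115 in mutants and -2.59 ± 0.290 in controls (SD, n = 4 each). The difference of -0.15 did not pass (exact permutation test, two-sided, p = 0.543, adjusted over the 2 pairs 0.543), and it changed sign to 0.064 with a pseudocount of 0.1. The ratio of rorca to rorcb averaged 1.27 ± 0.162 in mutants and 0.93 ± 0.196 in controls. That difference of 0.34 did not pass either (exact permutation test, two-sided, p = 0.0571, adjusted over the 2 pairs 0.114). With 70 assignments and the other pair as found, neither pair could have reached an adjusted p below 0.0571, so this test could not pass at 0.05.

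**Figure D1:**
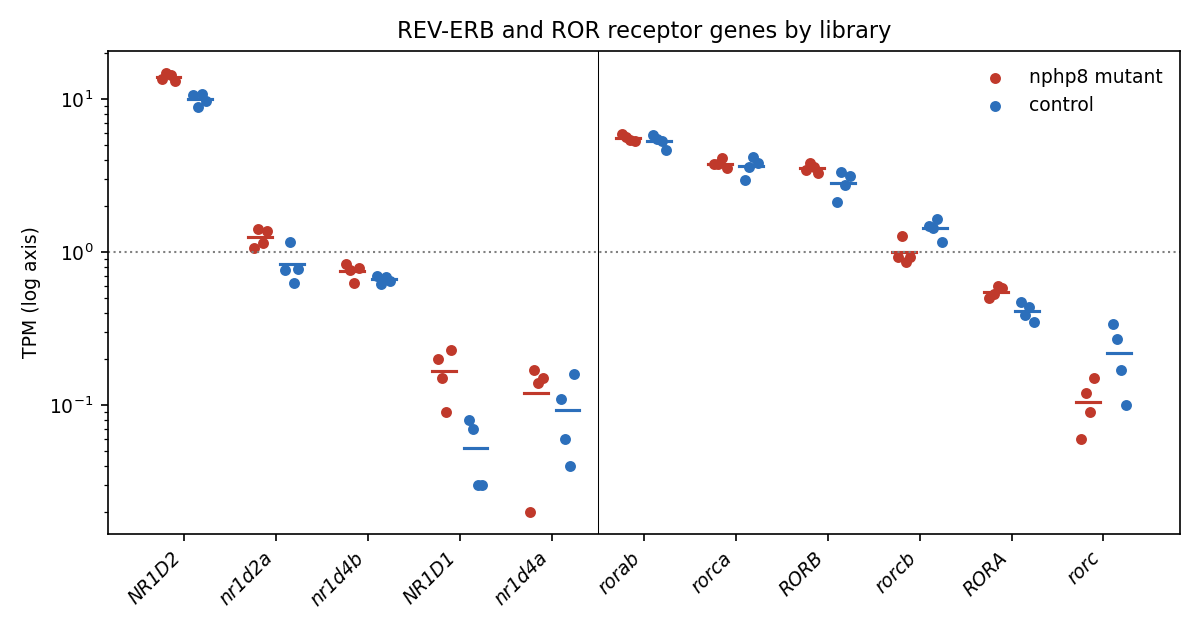
TPM of the 5 REV-ERB genes (left of the vertical line) and the 6 ROR genes (right of it) in each library, on a log axis; points are libraries, short bars are group means over 4 libraries, mutants stand left of controls and the dotted line marks 1 TPM. NR1D2 lies highest, with 13.23 to 14.91 TPM in mutants and 8.84 to 10.74 TPM in controls. NR1D1 and RORA also have mutants above all controls at levels under 1 TPM, which held for 2.78% of genes at such levels.

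The remaining REV-ERB genes were below 1 TPM, and they were examined in a fit of all 26064 genes above 0 in any library, in which 13.4% of genes were called, and 3.67% of those under 1 TPM. NR1D1 (ENSDARG00000033160), the copy of REV-ERBα, which is an abundant clock component in adult mammalian tissues, had low values at this stage. It stood at 0.2, 0.15, 0.09 and 0.23 TPM in mutant libraries 1 to 4, against 0.08, 0.07, 0.03 and 0.03 TPM in control libraries 1 to 4. Every mutant lay above every control, which held for 2.78% of genes under 1 TPM. The log2 change of 0.15 did not pass (limma adjusted p = 0.0558), though without mutant library 3 it did (limma adjusted p = 0.0218). The ratio of the means was 3.19, at levels printed to 2 decimals where a change of 0.01 is a large part of the value.

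The nr1d4 copies overlapped between the groups. The gene nr1d4b (ENSDARG00000059370) ranged from 0.63 to 0.84 TPM in mutants and from 0.62 to 0.7 TPM in controls (limma adjusted p = 0.436). The gene nr1d4a (ENSDARG00000031161) ranged from 0.02 to 0.17 TPM in mutants and from 0.04 to 0.16 TPM in controls (limma adjusted p = 0.735). In RefSeq's gene table both overlap the span of a retinoic acid receptor gamma gene, nr1d4a with rarga and nr1d4b with rargb. No source used here gives the strand setting of the counting, so reads of the overlapping genes may not be separable. All 5 REV-ERB genes had a higher mean in mutants, as did 4 of the 6 ROR genes. These counts were not tested and have no share over all genes beside them. Of the 2 REV-ERB genes that averaged at least 1 TPM, 1 was called, against 22.6% of all genes tested.

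Of the ROR genes, 4 were tested and 0 were called in either direction by limma, against 22.6% of all genes tested. With 4 genes this is not far from the background. The unadjusted p was under 0.05 for 2 of them, rorcb and RORB, and 4999 of the 16560 genes tested had a smaller p than RORB. The most abundant, rorab (ENSDARG00000001910), a copy of the RORα gene, gave 5.92, 5.64, 5.43 and 5.36 TPM in mutant libraries 1 to 4, against 5.87, 5.52, 5.36 and 4.65 TPM in control libraries 1 to 4. The groups overlapped over most of their range, and only control library 4 lay below all mutants. The log2 change was 0.056 (95% interval -0.096 to 0.21, limma adjusted p = 0.602), which on the log2(TPM + 1) scale bounds an increase at a factor of 1.16. The other copy, RORA (ENSDARG00000031768), was below 1 TPM. It stood at 0.5, 0.53, 0.6 and 0.58 TPM in mutant libraries 1 to 4, against 0.47, 0.39, 0.44 and 0.35 TPM in control libraries 1 to 4. Its mutants lay above its controls, which held for 2.78% of genes under 1 TPM. The log2 change of 0.14 did not pass in the fit of all genes above 0 (SE 0.0474, limma adjusted p = 0.0991).

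RORB (ENSDARG00000033498), the gene of the receptor tied to the retina in mice, stood at 3.46, 3.85, 3.62 and 3.28 TPM in mutant libraries 1 to 4, against 2.13, 3.32, 2.75 and 3.13 TPM in control libraries 1 to 4. The groups overlapped by 1 library on each side, control 2 and mutant 4. The means were 3.55 ± 0.242 TPM in mutants and 2.83 ± 0.525 TPM in controls (SD, n = 4 each), a ratio of 1.25 that did not pass (log2 change 0.26, 95% interval 0.032 to 0.48, limma adjusted p = 0.0967). Among photoreceptor markers 3 of 9 tested rose and 0 fell, against 9.32% and 13.3% of all genes tested. Those that rose were both CRX copies and an ARR3 copy (ENSDARG00000056511), a cone arrestin gene. With a library left out 1 to 3 rose, and the ARR3 copy kept its call each time. The copy crx (ENSDARG00000011989) lost its call without mutant 1, 2 or 4 or any control. The copy CRX (ENSDARG00000043483) lost it without mutant 2, 3 or 4 or control 1, 2 or 4. Both lost it with the replicate number as a block, and crx also with a pseudocount of 0.1 and in the fit of all genes above 0. Without mutant 1 a PDE6H copy, pde6ha, was called higher (log2 change 0.48, limma adjusted p = 0.0251). Without control 1 a recoverin copy, rcvrnb, was called lower (log2 change -0.36, limma adjusted p = 0.0132). The summed markers ranged from 23.0 to 27.9 TPM in mutants and from 20.6 to 25.2 TPM in controls. No photoreceptor marker was at 0 in all libraries. Their part in the RORB values was not tested.

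Of the genes for RORγ, none passed. The gene rorcb (ENSDARG00000017780) stood at 0.93, 1.27, 0.86 and 0.93 TPM in mutant libraries 1 to 4, against 1.48, 1.43, 1.64 and 1.17 TPM in control libraries 1 to 4. Mutants 1, 3 and 4 lay below every control, and mutant 2 lay above control 4 alone. The means were 0.998 ± 0.185 TPM in mutants and 1.43 ± 0.195 TPM in controls (SD, n = 4 each), a ratio of 0.698 that did not pass (log2 change -0.28, SE 0.0965, limma adjusted p = 0.0612). It passed without mutant library 2 (limma adjusted p = 0.0323), without control library 4 (0.0472) and with no mean-variance trend (0.038), fits in which 19.7%, 18.2% and 20.6% of all genes were called.

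Its copy rorca (ENSDARG00000057231) stood at 3.78, 3.75, 4.1 and 3.56 TPM in mutant libraries 1 to 4, against 2.95, 3.63, 4.21 and 3.8 TPM in control libraries 1 to 4. The controls spanned the whole range of the mutants, and the log2 change was 0.052 (95% interval -0.14 to 0.25, limma adjusted p = 0.713). A further gene, rorc (ENSDARG00000087195), ranged from 0.06 to 0.15 TPM in mutants and from 0.1 to 0.34 TPM in controls, with a log2 change of -0.14 in the fit of all genes above 0 (limma adjusted p = 0.196). Among the 5 receptor genes under 1 TPM 0 had all mutants below all controls, which held for 3.23% of genes at such levels. The same was true of 0 of the 6 tested, against 14.8% of all genes tested. In RefSeq's gene table the span of rorcb overlaps that of cactin, a more abundant gene at 19.8 TPM in mutants and 17.9 TPM in controls that did not pass (limma adjusted p = 0.0936). The values of rorcb may therefore depend on how reads of that region were assigned.

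**Figure D2:**
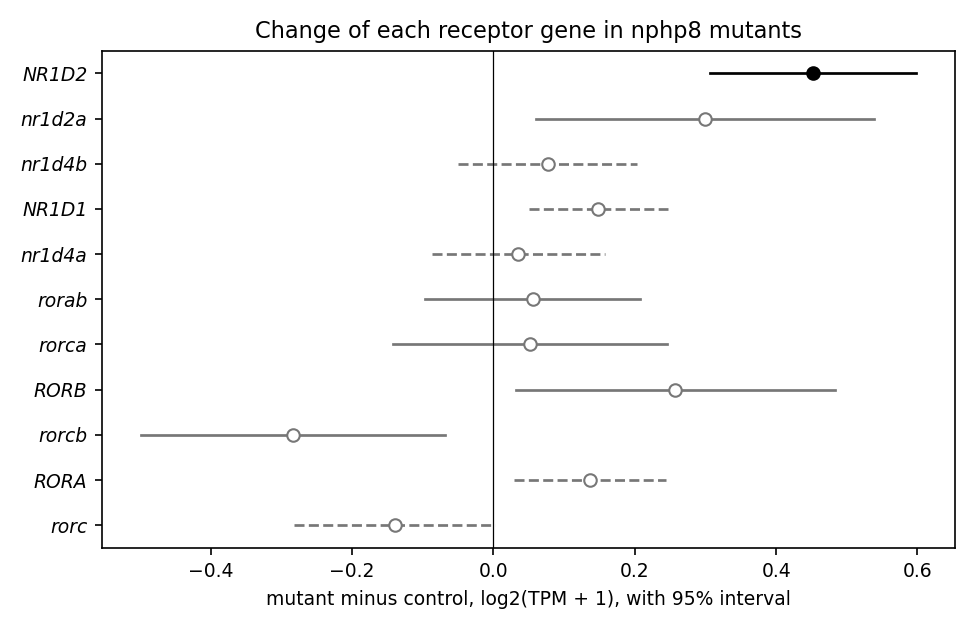
Mutant minus control on the log2(TPM + 1) scale for each receptor gene, with the unadjusted 95% interval of limma; REV-ERB genes stand above ROR genes, the filled point passed at an adjusted p under 0.05, and dashed lines are genes below 1 TPM, taken from the fit of all genes above 0. NR1D2 lies at 0.45 and rorcb at -0.28, and the intervals of rorab, rorca, nr1d4a, nr1d4b and rorc span 0.

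In order of the mean over all 8 libraries, the receptors ran from NR1D2 through rorab, rorca, RORB, rorcb, nr1d2a, nr1d4b, RORA and rorc to NR1D1 and nr1d4a. Within mutants nr1d2a averaged above rorcb, and both NR1D1 and nr1d4a above rorc. Within controls nr1d4a averaged above NR1D1. NR1D2 had a mean above 80.4% of all genes in the table and nr1d4a above 31.8%. The ranges of rorca and RORB overlapped in both groups, as did those of rorcb and nr1d2a and those of NR1D1 and nr1d4a. The ranges of nr1d2a and nr1d4b overlapped in controls alone, and those of rorc and NR1D1 in mutants alone. The other neighbours in this order were apart in both groups. Relative to the mean, the spread was wide at low levels, with a coefficient of variation of 56.5% for nr1d4a against 5.52% for NR1D2 among mutants.

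NR1D2 made up most of the REV-ERB transcripts in either group, 83.9% to 87.8% of their summed TPM in mutants and 82.2% to 88.5% in controls. Summed over its 5 genes, REV-ERB ranged from 15.7 to 17.4 TPM in mutants and from 10.8 to 12.4 TPM in controls, with no overlap. The ROR sum over 6 genes ranged from 13.9 to 15.2 TPM in mutants and from 13.2 to 14.6 TPM in controls, and these ranges overlapped. The ratio of the REV-ERB sum to the ROR sum was accordingly 1.07 to 1.15 in mutants and 0.739 to 0.934 in controls. These sums are descriptions of transcript levels and carry no test, and rorab and rorca together held 61.9% to 66.2% of ROR TPM in mutants and 62.8% to 66.6% in controls.

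**Figure D3:**
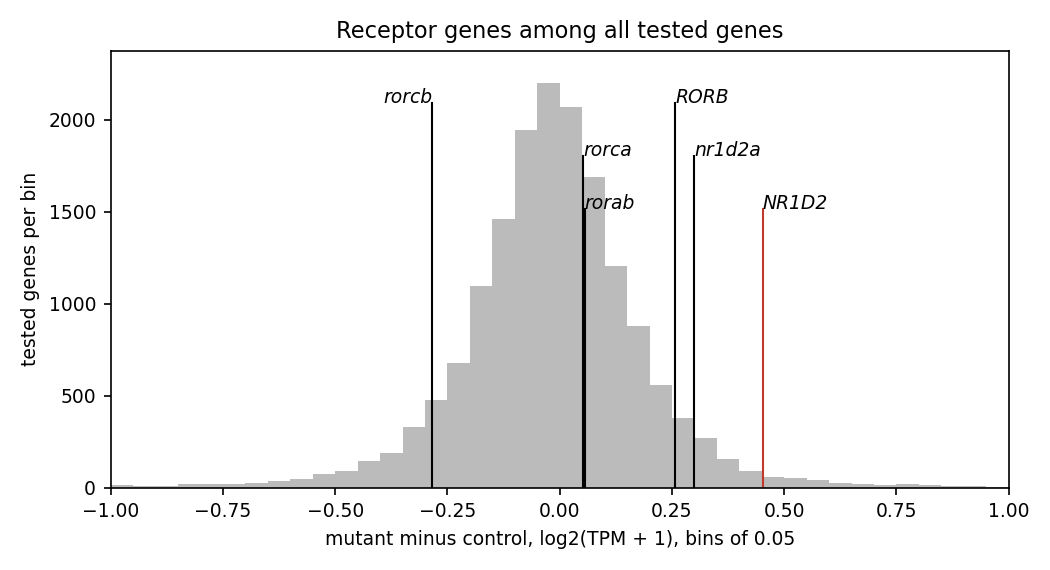
Number of tested genes in each bin of log2 change (mutant minus control on log2(TPM + 1), shown from -1 to 1), with vertical lines at the 6 tested receptor genes. NR1D2 lies in the right tail, with 310 of 16560 genes higher, and rorab and rorca lie near the centre.

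The 3 genes whose profile over the 8 libraries was nearest to that of NR1D2 were taken by the root mean square difference in log2(TPM + 1), each gene centred on its control mean. The nearest was ENSDARG00000110698, to which the names used here give no symbol. It stood at 9.49, 10.16, 10.49 and 9.63 TPM in mutant libraries 1 to 4, against 7.71, 6.07, 7.19 and 7.07 TPM in control libraries 1 to 4, at a root mean square difference of 0.0405. Its ratio to the TPM of NR1D2 was 0.681 to 0.728 in mutants and 0.669 to 0.727 in controls. A steady ratio follows from the choice by likeness, and the other 2 genes picked had one too. For CASP6 it was 0.429 to 0.477 in mutants and 0.432 to 0.491 in controls. For MIP it was 2.99 to 3.37 in mutants and 3.00 to 3.38 in controls. Whether ENSDARG00000110698 overlaps or duplicates NR1D2, so that RSEM divided reads between them, was not tested. With its TPM added, a calculation chosen after seeing the data, the REV-ERB sum ranged from 25.2 to 27.6 TPM in mutants and from 16.8 to 20.1 TPM in controls. The ratio to the ROR sum was then 1.72 to 1.83 in mutants and 1.16 to 1.52 in controls, above 1 in both groups. Which sum is larger in controls thus depends on whether that gene is counted, and no name used here places it in REV-ERB. MIP, a lens water channel gene, followed with 44.6 ± 0.0263 TPM in mutants and 31.3 ± 1.21 TPM in controls (SD, n = 4 each), at a difference of 0.0706. CASP6, a caspase gene, came next with 6.44 ± 0.561 TPM in mutants and 4.61 ± 0.192 TPM in controls, at 0.072.

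**Figure D4:**
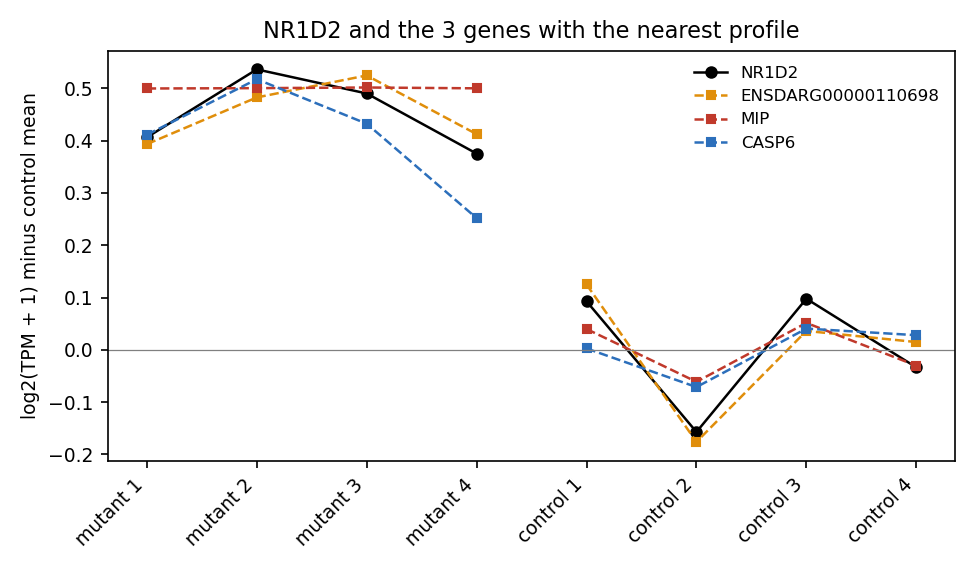
Log2(TPM + 1) minus the control mean in each library for NR1D2 and the 3 tested genes with the smallest root mean square difference from it; lines join the 4 libraries of a group to guide the eye, with no order among replicates. NR1D2 and ENSDARG00000110698 differ by a root mean square of 0.0405, and the 3 genes beside NR1D2 were picked for their likeness to it.

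Of the clock genes that REV-ERB and ROR act on in mammals through RORE elements, 13 were found and 8 were tested. Of these, 2 rose and none fell, against 9.32% called higher and 13.3% lower over all genes tested. With 8 genes these counts are small, and they were not tested. The median log2 change was 0.13, against -0.015 over all genes tested. The core activator gene BMAL1 has a pair of copies here. The first (ENSDARG00000006791) averaged 13.1 ± 0.571 TPM in mutants and 13.2 ± 0.670 TPM in controls (limma adjusted p = 0.957). The second (ENSDARG00000035732) stood at 7.18, 6.25, 6.67 and 7.24 TPM in mutant libraries 1 to 4, against 5.65, 5.9, 6.04 and 6.18 TPM in control libraries 1 to 4. All its mutants lay above its controls, which held for 11.3% of all genes tested. Its log2 change of 0.17 did not pass (limma adjusted p = 0.0563). It passed without mutant library 2 (limma adjusted p = 0.0297), with no mean-variance trend (0.046) and when libraries were rescaled without mitochondrial and the 50 most abundant genes (0.0407).

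The 2 that rose were a copy of CRY1 and nfil3-5. CRY1 (ENSDARG00000045768), a clock repressor gene, stood at 13.53 to 16.43 TPM in mutants and 2.72 to 3.18 TPM in controls, a ratio of 4.77. The other CRY1 copy (ENSDARG00000011583) averaged 3.19 ± 0.215 TPM in mutants and 2.74 ± 0.189 TPM in controls and did not pass (limma adjusted p = 0.113). The gene nfil3-5, a copy of the repressor gene NFIL3, averaged 17.98 ± 0.477 TPM in mutants and 15.7 ± 0.413 TPM in controls (SD, n = 4 each, limma adjusted p = 0.0061). The activators CLOCK (ENSDARG00000003631) and bmal2 did not pass, with log2 changes of 0.036 and 0.094.

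Among the other core clock genes, which include those above, 9 of 28 tested rose and 1 fell, against 9.32% and 13.3% of all genes tested. CRY1, PER2 and cry3b had the largest increases, with log2 changes of 1.94, 1.80 and 1.37, against 0.45 for NR1D2. The clock repressor gene BHLHE40 was the one that fell (log2 change -0.14, limma adjusted p = 0.0041). A second gene was called lower without control 1, fbxl3b (limma adjusted p = 0.0262), and with no mean-variance trend, BHLHE41 (limma adjusted p = 0.0438). The series title names circadian clock genes as a finding of the study, so the direction of this group is not independent evidence.

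REV-ERB and ROR act through corepressor and coactivator proteins, and the share of all genes tested that were called, 22.6%, is the background for the counts of their genes. Of 9 corepressor genes tested (among them NCOR1, HDAC3, both SIN3A copies, GPS2 and the TBL1X group) 0 were called by limma, and 3 had an unadjusted p under 0.05. These were tbl1xr1a and TBL1X, with log2 changes of 0.08 and 0.12, and tbl1xr1b, with -0.18. NCOR1 averaged 14.1 ± 0.664 TPM in mutants and 13.2 ± 0.972 TPM in controls, and hdac3 averaged 39.2 ± 1.36 TPM in mutants and 40.4 ± 1.62 TPM in controls. With median-of-ratios rescaling tbl1xr1a was called (log2 change 0.094, limma adjusted p = 0.0376), as it was when rescaled without mitochondrial and the 50 most abundant genes (0.0326).

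Of 12 coactivator genes 1 rose, NCOA2, a p160 coactivator of nuclear receptors, at 11.8 ± 0.299 TPM in mutants and 10.1 ± 0.390 TPM in controls (SD, n = 4 each, limma adjusted p = 0.0068). Under both rescalings an EP300 copy and NRIP1 were called as well. PPARGC1A, a metabolic coactivator gene, averaged 1.86 ± 0.181 TPM in mutants and 1.55 ± 0.271 TPM in controls and did not pass (limma adjusted p = 0.224). Of 8 kinase and ubiquitin ligase genes that set REV-ERB protein turnover in mammals 0 were called by limma and 1 had an unadjusted p under 0.05. That was FBXW7, a ligase subunit gene, which averaged 12.7 ± 0.799 TPM in mutants and 14 ± 0.462 TPM in controls, and it was called lower without mutant library 2 (limma adjusted p = 0.0418).

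Heme is the ligand of REV-ERB. Of 13 heme synthesis and breakdown genes 5 rose and 0 fell. Over all genes tested 9.32% were called higher and 13.3% lower, the background also for the erythroid markers below. The erythroid gene of the first step, alas2, averaged 74.2 ± 2.57 TPM in mutants and 41.7 ± 2.22 TPM in controls, a ratio of 1.78 (SD, n = 4 each). PPOX and uros, genes of later steps, had ratios of 1.34 and 1.32, and UROD, with a ratio of 1.07 (limma adjusted p = 0.0486), lost its call in 11 of 16 alternatives. ALAS1, the form of the first step used outside red cells, averaged 38.1 ± 1.48 TPM in mutants and 37.8 ± 2.72 TPM in controls (limma adjusted p = 0.862). Of 7 erythroid markers tested, which share alas2 with this group, 5 rose and 1 fell, an SLC4A1 copy (ENSDARG00000024560). The SLC4A1 call was lost without mutant 1 or 3 or control 1 or 4, and with the replicate number as a block (limma adjusted p = 0.0581). The summed erythroid markers ranged from 11577 to 11990.4 TPM in mutants and from 6653 to 6814 TPM in controls. Their part in the heme gene values was not tested.

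Of 11 metabolic genes tested that REV-ERB or ROR act on in mammals, 1 rose and 2 fell. Over all genes tested 9.32% were called higher and 13.3% lower, so these counts are not far from the background. The glucose-6-phosphatase genes moved apart. G6PC1 (ENSDARG00000013721) averaged 19.6 ± 1.01 TPM in mutants and 25.8 ± 0.576 TPM in controls (SD, n = 4 each, limma adjusted p = 0.000155). The copy g6pc1a.1 averaged 2.55 ± 0.768 TPM in mutants and 1.37 ± 0.389 TPM in controls (SD, n = 4 each, limma adjusted p = 0.0359). The fatty acid import gene cpt1ab had a ratio of 0.902 (limma adjusted p = 0.0286). The call of g6pc1a.1 was lost without mutant 1, 3 or 4 or control 1, 2 or 4 (limma adjusted p up to 0.0859). It was also lost in the fit of all genes above 0 (limma adjusted p = 0.0686). The call of cpt1ab was lost without mutant 1 or 4 or control 1 or 2 (limma adjusted p up to 0.076). It was also lost when libraries were rescaled without mitochondrial and the 50 most abundant genes (limma adjusted p = 0.0542).

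REV-ERB and ROR belong to the NR1 subfamily. Its other receptors gave 1 call in each direction among 14 tested, against 9.32% higher and 13.3% lower over all genes tested. Both were copies of the retinoic acid receptor alpha gene, with rarab at 20.6 ± 0.489 TPM in mutants and 17.7 ± 0.570 TPM in controls and raraa at 13.2 ± 0.362 TPM in mutants and 14.9 ± 0.967 TPM in controls (SD, n = 4 each). The limma adjusted p was 0.0031 for rarab and 0.0412 for raraa, and the call of raraa was lost in 12 of 16 alternatives. The thyroid hormone, vitamin D, PPAR and RARG receptor genes tested did not pass. The median log2 change of the 14 was 0.0028.

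**Figure D5:**
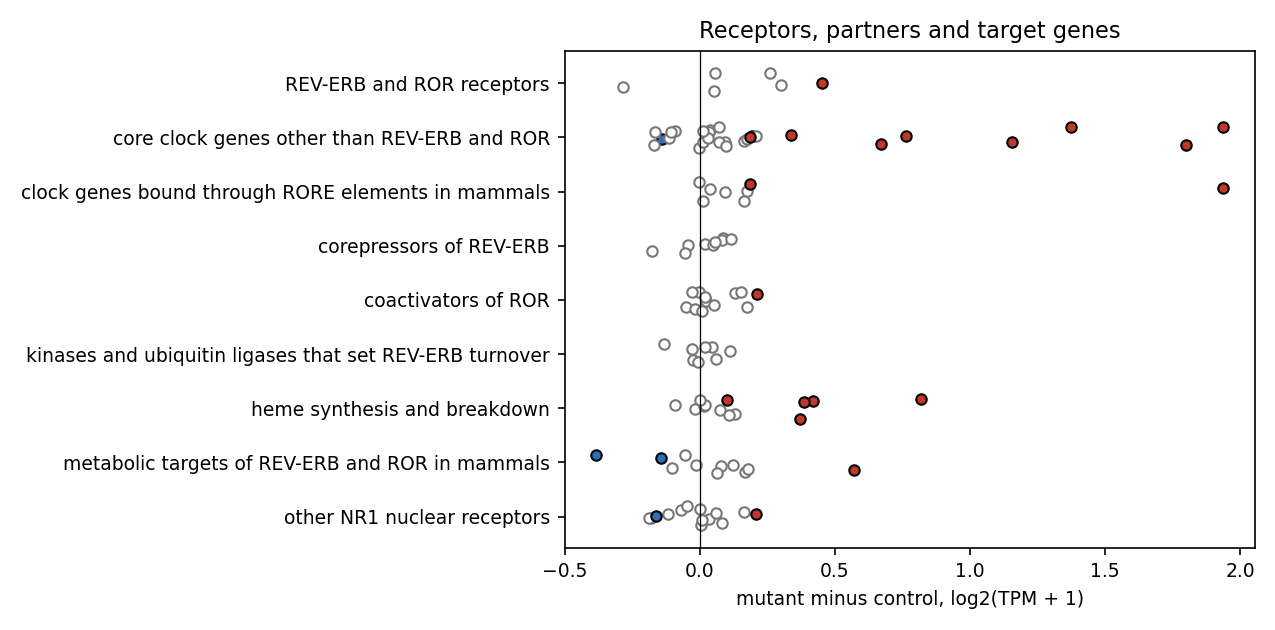
Mutant minus control on the log2(TPM + 1) scale for the tested receptor genes (top row) and for tested genes of 8 related groups; each point is a gene, filled in red or blue where it was called higher or lower by limma, and points are spread vertically to separate them. The corepressor and turnover rows hold 0 called genes, and the heme row 5, against 22.6% called over all genes tested.

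Markers of tissues present in a whole larva moved as well. The background for their counts is the share of all genes tested, 9.32% called higher and 13.3% lower. Of skeletal muscle markers 9 of 9 rose, of lens markers 5 of 6, of neuronal markers 5 of 8 and of liver markers 2 of 6, with 0 lower in each. With a library left out, 2 to 5 neuronal markers rose. Of cerebellar markers 3 of 7 fell, of epidermal markers 4 of 6 and of hatching gland markers 4 of 4, with 0 higher in each, and 2 to 4 epidermal ones with a library left out. The 4 pineal markers were all below 1 TPM, and their sum ranged from 0.66 to 1.19 TPM in mutants and from 1.4 to 1.66 TPM in controls. In the fit of all genes above 0, 1 of them was called lower, where 3.67% of genes under 1 TPM were called in either direction. None of these markers was at 0 in all libraries. Their part in the receptor values was not tested.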

How the data were processed

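The authors deposited a table of TPM per Ensembl gene with a column per library, printed to 2 decimals. The submitters' processing notes name STAR 2.7.3a, RSEM 1.3.1 and the genome build GRCz11. RSEM divides reads shared by similar genes, so values of duplicated copies carry that uncertainty. Symbols came from a table that names 29201 of 32520 identifiers (89.8%). RefSeq's gene table, of another assembly (GRCz12tu), served for overlapping neighbours of the receptor genes it names alike (9 of 11). NR1D2 and RORA were not matched, so whether other genes overlap them was not examined.

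Groups and replicate numbers come from the titles. The test was limma 3.58.1 in R 4.3.3 (eBayes with trend, two-sided, no covariate) on log2(TPM + 1), for genes that averaged 1 TPM or more. It was checked on simulated data. Folds are ratios of mean TPM. Exact permutation tests enumerated 70 assignments by absolute difference. Python 3.11.15, pandas 2.3.3 and matplotlib 3.10.9 were used for summaries and plots.

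The receptor genes and the 18 gene lists were chosen with earlier results of these data known. A listed symbol matched a row of that name, with or without a copy letter a or b. All receptor genes are named, then the 3 nearest profiles, and of each of the 8 related lists all called genes up to 6, otherwise the 3 largest changes per direction. BMAL1, CLOCK, bmal2, the other CRY1 copy, NCOR1, hdac3, PPARGC1A, FBXW7, the TBL1X group, ALAS1 and some genes called only under an alternative are named besides, after their values were seen. Some members, called ones included, are counted but not reported by name here. No sequences were used here. Alternatives varied the pseudocount (0.1 and 5), filter, scaling, trend, replicate block and library left out.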

Additional observations from a re-analysis of the deposited data

Results flagged for a closer look

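In 5 of 130 groups of 4 libraries examined, a library stood apart from the others by Dixon's criterion for the gap over the range, and chance gives such a gap in about 1 of 20 groups. For rorcb the highest mutant, library 2, was at 1.27 TPM, with the next at 0.93 TPM. For NCOA2 the highest mutant, again library 2, was at 12.25 TPM, with the next at 11.68 TPM. For CRY1 (ENSDARG00000045768) the lowest control, library 3, was at 2.72 TPM, with the next at 3.14 TPM. For raraa the lowest control, library 2, was at 13.5 TPM, with the next at 15.28 TPM. For he1.1, a hatching enzyme gene among the markers, the highest mutant, library 3, was at 3708.2 TPM, with the next at 3567.57 TPM.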

How the results depend on the processing

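The call of NR1D2 held in 16 of 16 alternatives, with a log2 change between 0.34 and 0.49 and a limma adjusted p between 0.000566 and 0.00621. The number of receptor genes called was 1, and 2 with no mean-variance trend, where rorcb passed. Leaving out a library gave 1 to 2 receptor genes, with rorcb passing without mutant 2 or control 4 and nr1d2a without control 2. The log2 change of rorca ranged from -0.024 without control 1 to 0.11 without control 3. The split of all calls by direction depended on the scaling, and with it the background of 9.32% higher and 13.3% lower. Of the genes called, 41.2% were higher in the main fit and 48.1% with median-of-ratios rescaling. The share was 50.7% when rescaled without mitochondrial and the 50 most abundant genes. With a pseudocount of 0.1 the difference of nr1d2a and NR1D2 was 0.064 in place of -0.15. The log2 change of nr1d2a was then 0.55 in place of 0.30, and that of NR1D2 0.49 in place of 0.45. Deviations of same-numbered libraries from their group means correlated at -0.102 to -0.0288, and no library correlated best with its own number. The replicate numbers are therefore not taken to pair the samples. With the number as a replicate block 2932 genes were called in place of 3745, with NR1D2 the 1 receptor gene called (limma adjusted p = 0.00621), and the paired sign-flip test of copies could not go below 0.125. Receptor genes under 1 TPM were also fitted with each alternative, chosen after seeing the data, and 1 call was gained, NR1D1 without mutant 3. TPM carries no depth, which limits what can be said of the 5 receptor genes under 1 TPM.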
